A study of Mus musculus with 18 samples.

Results

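Adenosine handling genes were followed in 18 intestinal tumours from mice. The genes Nt5e, Ada, Adk, Adora1, Adora2a, Adora2b, Slc29a1 and Slc28a2 were taken as rows of the deposited count table, 8 of its 24062 genes. They were chosen by measured values as well as by role, because the levels of Ada and Adora2b set 3 of the 18 tumours apart. That separation is therefore given as a description, with no test.

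The study asked how the mRNA of tumours differed with the genotype of Macrod2, which encodes an enzyme that removes ADP-ribose from proteins. Every tumour came from a male C57BL/6 mouse that carried the Min allele of Apc (ApcMin/+), a truncating germline mutation that gives rise to many intestinal adenomas, so the wt mice are tumour-bearing as well. The groups were 6 tumours from ApcMin/+/Macrod2-/- mice (hom), 5 from ApcMin/+/Macrod2-/+ mice (het) and 6 from ApcMin/+/Macrod2+/+ mice (wt), all labelled as epithelial tumours of the large intestine, and 1 further het tumour (het 4) labelled as small intestinal. The tumours are named here by genotype and mouse number, each title gives 1 mouse, and no age is given in the labels. Macrod2, the targeted gene, had 0 to 8 reads in hom tumours, 32 to 61 in het tumours and 32 to 75 in wt tumours. Libraries held 13529204 to 20857918 counted reads.

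Markers of intestinal position went against some of these labels. The posterior Hox genes that mark the large intestine were nearly silent, with Hoxa13 at 0 in 17 of the 18 tumours and Hoxb13, Hoxd13 and Hoxd10 each at or below 0.789 RPKM (reads per kilobase of gene length, scaled to library size). Among the other large intestinal markers counted, Slc26a3, an anion exchanger, was at 0.126 to 27.6 RPKM, and Car1, Aqp8 and B3galt5 at 0 to 5.28 RPKM. The list of 9 summed to 10.02 to 31.1 RPKM in hom, 5.08 to 20.4 RPKM in het and 1.91 to 28.6 RPKM in wt tumours. Small intestinal genes were present in the tumours labelled large intestine, and the summed level of 16 such markers was 3798 to 18859 RPKM in hom, 2353 to 15402 RPKM in het and 162.5 to 34117 RPKM in wt tumours. The labels are kept below as group names. The tumours wt 1, wt 2 and het 4 stood together: Gata4, a transcription factor of the upper small intestine, was at 50.4 RPKM in wt 1, 52.9 RPKM in wt 2 and 49.1 RPKM in het 4, against 0.0830 to 13.95 RPKM in the other 15, and Fabp6, the ileal bile acid binding protein, was at 3.39 to 4.51 RPKM in those 3 and at 22.1 to 3262 RPKM in the other 15. The full lists did not set all 3 apart. The 16 small intestinal markers summed to 23149, 34117 and 15184 RPKM in wt 1, wt 2 and het 4. In the other 15 they summed to 162.5 to 18859 RPKM, so het 4 lay inside that range. That list holds both Gata4 and Fabp6, which ran in opposite directions in the 3, so its sum mixes markers of both kinds. The 9 large intestinal markers summed to 28.6, 28.2 and 20.6 RPKM in the 3, inside the 1.91 to 31.1 RPKM of the 15. Because of Gata4 and Fabp6, contrasts against wt are given with and without wt 1 and wt 2.

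Adenosine is a purine nucleoside that also acts as a signal outside cells. Ectoenzymes strip phosphates from released ATP, and CD73, the product of Nt5e, makes the last cut from AMP to adenosine. Outside cells adenosine binds G protein-coupled receptors, of which those encoded by Adora2a and Adora2b raise cyclic AMP and that of Adora1 lowers it; the signal ends when adenosine is carried into cells by equilibrative (Slc29a1) or sodium-coupled concentrative (Slc28a2) transporters and is deaminated to inosine by adenosine deaminase (Ada) or phosphorylated to AMP by adenosine kinase (Adk). In the mouse, Ada is known for high expression in the epithelium of the upper alimentary tract.

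On mm10, Ada lies on the minus strand at chr2:163726584-163750239 and Slc28a2 on the plus strand of the same chromosome at chr2:122426477-122461137. Nt5e lies at chr9:88327197-88372092 and Adora2b at chr11:62248984-62266453, both on the plus strand. Adk (chr14:21052574-21448569) and Adora2a (chr10:75316877-75334784) are on the plus strand, and Adora1 (chr1:134199223-134235431) and Slc29a1 (chr17:45585200-45599606) on the minus strand. Counts were made over whole genes, so no value below belongs to 1 exon or transcript. The 3′ end of Adora1 overlaps Mybph on the other strand, a gene with a median of 0 reads here, and Slc29a1 overlaps the antisense gene Gm17080, which was not counted separately; the strand setting of the counting is not given in the sources used here.

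Promoters were matched for 7 of the 8 genes in RefSeq (GRCm38.p6, the assembly of mm10), as windows from 250 bases before to 50 bases after the start. The 4 shown are those of the genes whose levels varied most over all 18 tumours, in the order Ada, Adora2b, Nt5e and Slc28a2. Each is printed 5′ to 3′ on the strand of its gene. Capitals mark every match, on either strand, to 1 of 5 motifs. The letters GATAA stand for sites of Gata factors and CATAAA for those of Cdx factors. GTTAAT stands for Hnf1 and GGGCGG, which reads CCGCCC on the other strand, for Sp factors. TATAAA stands for the TATA box. The windows are chr2:163750190-163750489 (minus), chr11:62248734-62249033 (plus), chr9:88327359-88327658 (plus) and chr2:122426185-122426484 (plus).
Ada: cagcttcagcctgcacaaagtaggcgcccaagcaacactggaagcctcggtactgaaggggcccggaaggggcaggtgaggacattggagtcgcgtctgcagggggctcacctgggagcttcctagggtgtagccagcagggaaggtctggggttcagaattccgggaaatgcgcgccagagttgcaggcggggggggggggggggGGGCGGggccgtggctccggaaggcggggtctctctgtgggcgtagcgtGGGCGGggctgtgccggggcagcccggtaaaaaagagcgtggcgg
Adora2b: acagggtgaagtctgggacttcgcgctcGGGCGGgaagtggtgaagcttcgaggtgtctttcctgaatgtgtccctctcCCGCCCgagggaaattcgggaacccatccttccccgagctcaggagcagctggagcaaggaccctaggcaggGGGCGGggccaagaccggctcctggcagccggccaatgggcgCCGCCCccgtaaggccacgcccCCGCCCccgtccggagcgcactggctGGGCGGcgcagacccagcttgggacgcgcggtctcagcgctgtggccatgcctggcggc
Nt5e: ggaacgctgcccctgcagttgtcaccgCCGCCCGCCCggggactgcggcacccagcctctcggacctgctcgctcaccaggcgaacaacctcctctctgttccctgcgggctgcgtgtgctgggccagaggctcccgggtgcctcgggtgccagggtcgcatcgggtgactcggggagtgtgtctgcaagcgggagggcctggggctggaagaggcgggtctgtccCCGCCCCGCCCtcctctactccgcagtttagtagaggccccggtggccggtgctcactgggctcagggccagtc
Slc28a2: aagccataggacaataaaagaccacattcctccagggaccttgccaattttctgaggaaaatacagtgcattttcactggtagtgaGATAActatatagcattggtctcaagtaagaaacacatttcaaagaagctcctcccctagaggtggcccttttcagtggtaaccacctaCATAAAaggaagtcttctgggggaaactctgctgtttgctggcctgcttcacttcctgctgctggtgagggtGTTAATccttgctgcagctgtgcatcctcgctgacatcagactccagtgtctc

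The 4 windows fell into a GC-rich group and a single GC-poor one. The Ada window had 20 CG dinucleotides and 68% G and C, that of Adora2b 27 and 70%, and that of Nt5e 23 and 71%, beside medians of 7 and 52.7% over all 32851 promoters of the table. GGGCGG occurred 2 times in Ada, 6 times in Adora2b and 4 times in Nt5e, where neighbouring matches overlap. It occurs in 35.7% of all promoters, and none of these 3 windows held any of the other 4 motifs. The Slc28a2 window had 1 CG dinucleotide, 46.7% G and C and no GGGCGG. It held GATAA at position -164 from the start, CATAAA at -75 and GTTAAT at -3, letters found in 25.4%, 11.9% and 7.10% of all promoters. These are matches of letters, and no binding was measured.

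Per length, the 5 enzyme and transporter transcripts had higher medians than the receptor transcripts. Over the 15 tumours other than wt 1, wt 2 and het 4, the median level was 33.1 RPKM for Adk, 26.9 RPKM for Slc29a1, 18.3 RPKM for Ada, 16.3 RPKM for Nt5e and 11 RPKM for Slc28a2. Receptor transcripts came next, at 1.34 RPKM for Adora2a, 0.433 RPKM for Adora2b and 0.241 RPKM for Adora1. Neighbours in this order did not keep it in each tumour: Adk exceeded Slc29a1 in 11 of the 15, Ada exceeded Nt5e in 6 of the 15, and Adora2b exceeded Adora1 in 11 of the 15. Slc28a2 exceeded Adora2a in 15 of 15 tumours, although by little in wt 4, where they were at 1.78 and 1.57 RPKM.

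**Figure D1:**
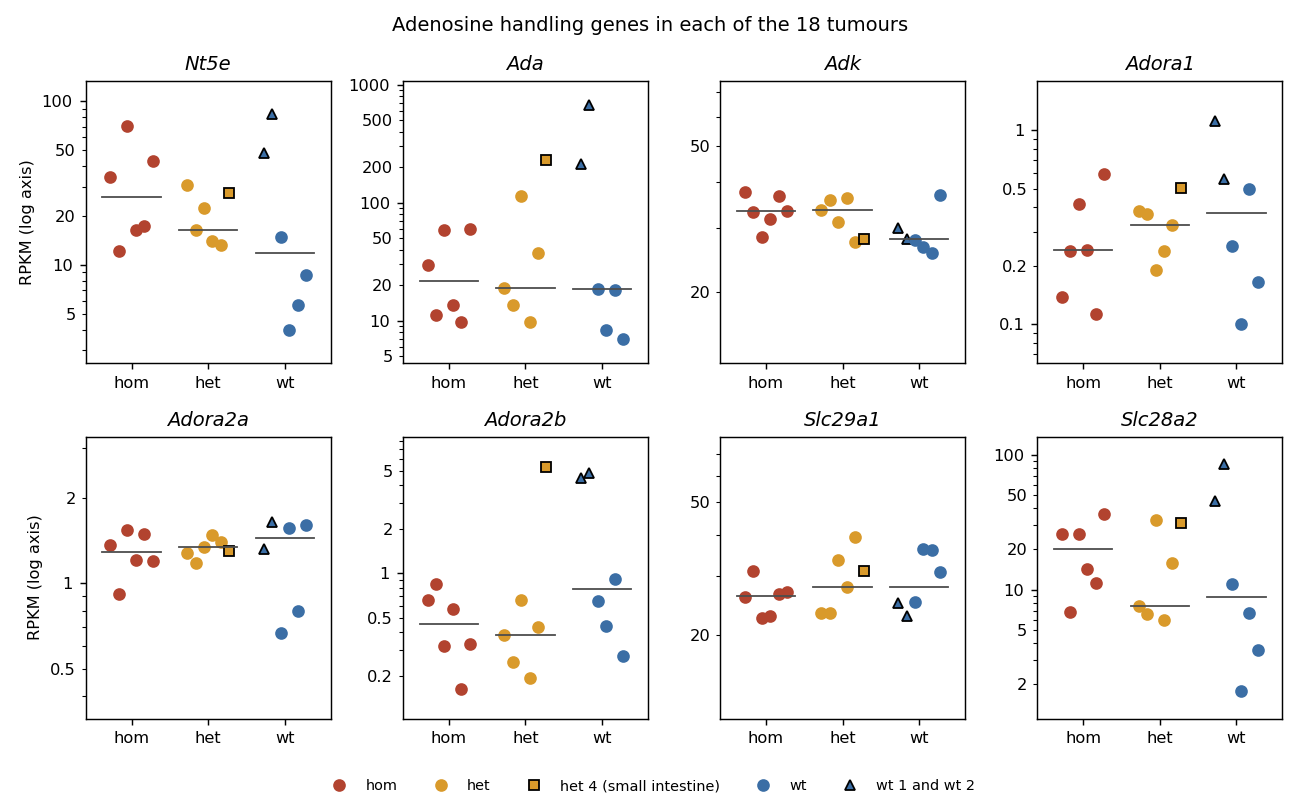
Levels of the 8 genes in each tumour, in RPKM on a log axis, by genotype (hom, het, wt). A point is 1 tumour, a square is het 4, triangles are wt 1 and wt 2, and lines are medians of the large intestinal tumours of a genotype. Ada and Adora2b of the square and triangles lie above all 15 other tumours, while Adk stays between 25.6 and 37.6 RPKM.

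Nt5e, which forms adenosine, varied widely inside each genotype. Its level, in CPM (counts scaled to library size, comparable between tumours of 1 gene but not between genes of unequal length), was 123, 43.4, 251, 58.4, 61.7 and 154 in hom 1 to 6. It was 110, 58.6, 79.1, 50.01 and 47.2 CPM in het 1, 2, 3, 5 and 6, and 98.7 CPM in het 4. In wt 1 to 6 it was 173, 297, 53.2, 14.4, 20.4 and 31.2 CPM. The wt group thus held both the highest and the lowest tumours, and wt 4, wt 5 and wt 6 lay below every hom and het tumour. Against wt, the log2 fold change of Nt5e in hom was 0.18 (SE 0.660, edgeR adjusted p = 0.911) over the 17 large intestinal tumours. Without wt 1 and wt 2 it was 1.95 (SE 0.506, edgeR adjusted p = 0.122), with 5 of 6 hom tumours above the 4 remaining wt tumours. Neither value passed the threshold of 0.05, and over 24 alternative settings the adjusted p was between 0.122 and 0.996.

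Ada, which removes adenosine by deamination, spanned the widest range of the 8 genes over the 18 tumours, but not over the 15 without wt 1, wt 2 and het 4. It was at 50.9, 19.1, 101, 23.1, 16.8 and 101 CPM in hom 1 to 6, and at 32.0, 23.3, 193, 16.5 and 64.0 CPM in het 1, 2, 3, 5 and 6. The het 4 tumour had 394 CPM. In wt 1 to 6 it was at 359, 1142, 31.9, 14.2, 31.1 and 11.95 CPM. Outside wt 1, wt 2 and het 4 the genotypes overlapped, and het 3 was the highest of the remaining 15. Over those 15, the highest CPM was 16.2 times the lowest for Ada, 17.5 times for Nt5e and 20.5 times for Slc28a2. The level of Ada in wt 2 was 36.7 times, in wt 1 11.5 times and in het 4 12.6 times the median of those 15. The lowest of the 3 was 1.86 times the highest of the 15.

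Genotype contrasts of Ada depended on wt 1 and wt 2. Its log2 fold change in hom against wt was -2.41 (SE 1.09, edgeR adjusted p = 0.301) over 17 tumours and 1.22 (SE 0.727, edgeR adjusted p = 0.292) without those 2, so the sign of the estimate turned. The high levels of Ada in wt 1 and wt 2 had entered the choice of members, so leaving them out was bound to raise the estimate. Nothing is read from that shift or from the p of Ada over 17 tumours. The adjusted p was between 0.204 and 0.713 over the 24 alternatives. In het against wt it was -2.05 (SE 1.15, edgeR adjusted p = 0.999) and, without them, 1.57 (SE 0.755, edgeR adjusted p = 0.619). The wt tumours are shared by both contrasts.

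Adk, the other route of removal, was the steadiest of the 8 genes. It averaged 65.3 ± 6.62 CPM in hom tumours, 64.0 ± 7.04 CPM in het tumours and 56.8 ± 7.82 CPM in wt tumours (SD, n = 6, 5 and 6). Its levels in wt 1, wt 2 and het 4 were 0.904, 0.843 and 0.840 times the median of the other 15. The log2 fold change in hom against wt was 0.17 (SE 0.106, edgeR adjusted p = 0.413) over 17 tumours and 0.19 (SE 0.127, edgeR adjusted p = 0.331) without wt 1 and wt 2. Set beside Adk in the same tumour, Ada was at 7.03 times the Adk level per length in wt 1, 24.0 times in wt 2 and 8.30 times in het 4. The ratio was 0.191 to 3.64 in the other 15, with a median of 0.559, so it was above that range in each of the 3. The levels of Ada in the 3 had entered the choice of members, so this separation is not a further result.

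Of the receptors, Adora2b was the one that set wt 1, wt 2 and het 4 apart. Its receptor has a low affinity for adenosine and is known from intestinal epithelium. It had 1.22, 1.57, 0.591, 1.06, 0.304 and 0.612 CPM in hom 1 to 6, 0.706, 0.461, 1.22, 0.360 and 0.799 CPM in het 1, 2, 3, 5 and 6, and 9.83 CPM in het 4. In wt 1 to 6 it had 8.24, 8.91, 1.19, 0.803, 1.69 and 0.507 CPM. The 3 tumours lay close together, at 10.3 times (wt 1), 11.2 times (wt 2) and 12.3 times (het 4) the median of the other 15, and the lowest of them was 4.87 times the highest of the 15. These levels rest on 129 to 171 reads in the 3 tumours and on 6 to 31 reads in the others. Of all 14271 genes tested, 467 (3.27%) were likewise higher in each of the 3 than in each other tumour, and Ada and Adora2b are the 2 of 8 members among them; since the choice of members used these levels, nothing is read from that count.

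The genotype estimate of Adora2b was nearer to 0 without wt 1 and wt 2, whose levels had entered its choice. Nothing is read from that shift or from the p of Adora2b over 17 tumours. Its log2 fold change in hom against wt was -2.04 (SE 0.656, edgeR adjusted p = 0.258) over 17 tumours and -0.23 (SE 0.463, edgeR adjusted p = 0.765) without them. The adjusted p was between 0.107 and 0.765 over the 24 alternatives. In het against wt the values were -2.37 (SE 0.715, edgeR adjusted p = 0.999) and -0.56 (SE 0.487, edgeR adjusted p = 0.693).

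The receptor encoded by Adora2a is known from immune and endothelial cells, among others. Adora2a had similar means in the 3 genotypes and ranged from 1.74 to 4.28 CPM over the 18 tumours. It averaged 3.36 ± 0.602 CPM in hom tumours, 3.48 ± 0.2997 CPM in het tumours and 3.30 ± 1.12 CPM in wt tumours (SD, n = 6, 5 and 6), and was at 0.987, 1.22 and 0.969 times the median of the 15 in wt 1, wt 2 and het 4. Adora1 was at 0.658 to 3.47 CPM in hom, 1.11 to 2.22 CPM in het and 0.584 to 6.55 CPM in wt tumours, with its highest level in wt 1. Its log2 fold change in hom against wt was -0.68 (SE 0.508, edgeR adjusted p = 0.486), and 0.18 (SE 0.485, edgeR adjusted p = 0.832) without wt 1 and wt 2.

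Adora3, a receptor gene known from mouse mast cells, had 3 to 6 reads in hom tumours and was too low to be tested. It had 28 reads in het 3 and 2 to 6 in the other large intestinal het tumours, 12 in het 4, and 44 in wt 2 against 4 to 6 in the other wt tumours. Mast cell transcripts ran beside it: the summed level of 10 mast cell markers was 1674 RPKM in het 3, 1317 RPKM in het 4 and 8065 RPKM in wt 2, and 25.0 to 1014 RPKM in the other tumours. The part of mast cells in the receptor levels was not tested.

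The mix of receptor transcripts differed accordingly. Adora2b made up 63.6% of the summed receptor RPKM in wt 1, 60.8% in wt 2 and 72.6% in het 4, and 8.97% to 41.3% in the other 15. Adora2a made up 18.9%, 20.7% and 17.7% in the 3, and 34.7% to 81.5% in the 15. The sum itself was 7.03, 7.95 and 7.34 RPKM in the 3, and 1.70 to 2.67 RPKM in the 15. The levels of Adora2b in the 3 had entered the choice of members, so the shares and the sum are not a further result.

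**Figure D2:**
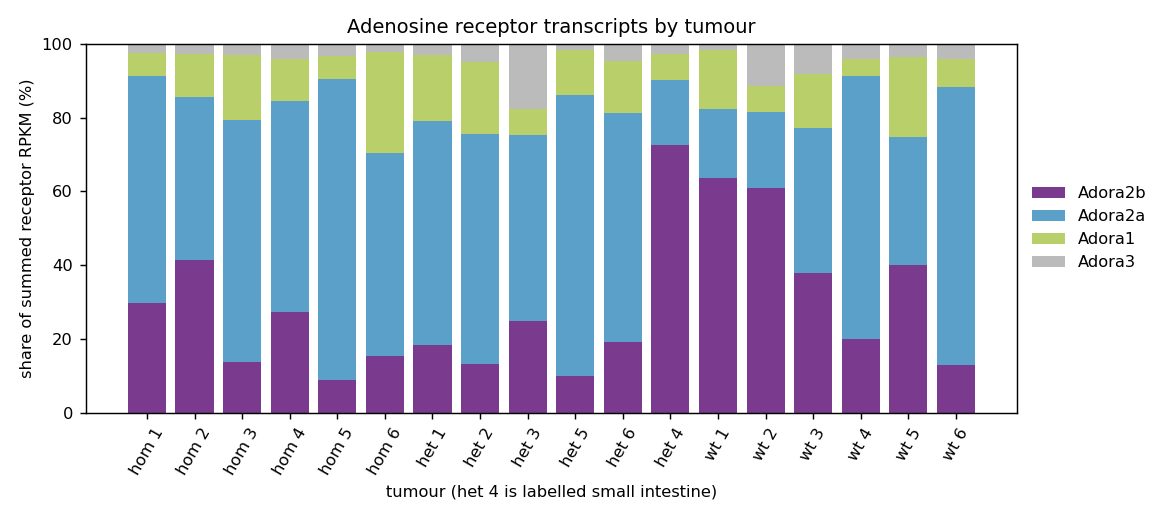
Share of each adenosine receptor in the summed receptor RPKM (percent) of each of the 18 tumours, ordered hom, het, wt. Adora2b makes up 60.8% to 72.6% in het 4, wt 1 and wt 2 and at most 41.3% in the other 15 tumours. Its levels in het 4, wt 1 and wt 2 had entered the choice of members.

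Transport showed a steady and a variable member. Slc29a1, which encodes the equilibrative carrier ENT1, averaged 64.2 ± 7.89 CPM in hom tumours, 73.0 ± 17.2 CPM in het tumours and 72.6 ± 14.6 CPM in wt tumours (SD, n = 6, 5 and 6). Its log2 fold change in hom against wt was -0.20 (SE 0.149, edgeR adjusted p = 0.482), and -0.31 (SE 0.154, edgeR adjusted p = 0.224) without wt 1 and wt 2. Slc28a2, which encodes the purine-preferring concentrative carrier CNT2, ranged from 26.8 to 142 CPM in hom tumours with a median of 78.4 CPM. It was at 29.8, 25.7, 128, 23.2 and 61.7 CPM in het 1, 2, 3, 5 and 6, and at 123 CPM in het 4. In wt 1 to 6 it was at 176, 332, 43.0, 6.94, 26.1 and 13.9 CPM. As with Nt5e, wt held both ends of the range, and the genotypes overlapped.

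The genotype estimates of Slc28a2 likewise turned with wt 1 and wt 2. In hom against wt the log2 fold change was -0.40 (SE 0.789, edgeR adjusted p = 0.811) over 17 tumours and 1.80 (SE 0.625, edgeR adjusted p = 0.134) without them, with 5 of 6 hom tumours above the 4 wt tumours. The adjusted p was between 0.134 and 0.936 over the 24 alternatives. A neighbouring copy, Slc28a2b (Gm14085 in the count table), lies 23.8 kb beyond Slc28a2 at chr2:122484941-122528040. It had 8.75, 16 and 4.58 RPKM in wt 1, wt 2 and het 4, and 0.723 to 5.39 RPKM in the other 15 tumours, with a median of 1.602 RPKM, so het 4 lay inside their range. Reads shared by the copies could have been assigned to either, so the split between them is uncertain.

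None of the 8 genes passed the adjusted p of 0.05 in any genotype contrast. With edgeR, 1 gene of 14271 was called in hom against wt (0.00701% of those tested), 0 in het against wt (0%) and 1 in hom against het (0.00701%). Without wt 1 and wt 2 the counts were 1 of 14392 (0.00695%), 0 (0%) and 1 (0.00695%). The called gene was Macrod2 each time. Of the 8 members, 2 had an unadjusted p below 0.05 in hom against wt with edgeR (Ada and Adora2b), the same 2 with DESeq2 and 0 with limma-voom, and none of these tools called a member. Those 2 were chosen on levels that this contrast holds, so the count supports nothing. Over all genes the same contrast had 2277 of 14271 at that level with edgeR, and 3535 of 14392 without wt 1 and wt 2, where the members at that level were Nt5e and Slc28a2. In het against wt 1 member was at that level with edgeR (Adora2b), 2 with DESeq2 (Ada and Adora2b) and 1 with limma-voom (Adora2b). That contrast holds the same wt tumours and the same chosen genes, so its count supports nothing either. In hom against het 0 members were at that level with each tool. Without wt 1 and wt 2, Nt5e was the 1 member at that level in het against wt, and 0 members were in hom against het. Over all genes, het against wt had 407 genes at that unadjusted level with edgeR, 498 with DESeq2 and 346 with limma-voom, and 1055 with edgeR without wt 1 and wt 2. Between hom and het, log2 fold changes of the members lay between -0.36 (Ada, SE 1.08) and 0.73 (Nt5e, SE 0.701) over 17 tumours, with edgeR adjusted p = 0.9998 for both. The wt tumours enter these errors through the shared estimate of spread: without wt 1 and wt 2 the estimates were -0.35 (SE 0.648) and 0.73 (SE 0.444), with edgeR adjusted p = 0.998 for both.

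**Figure D3:**
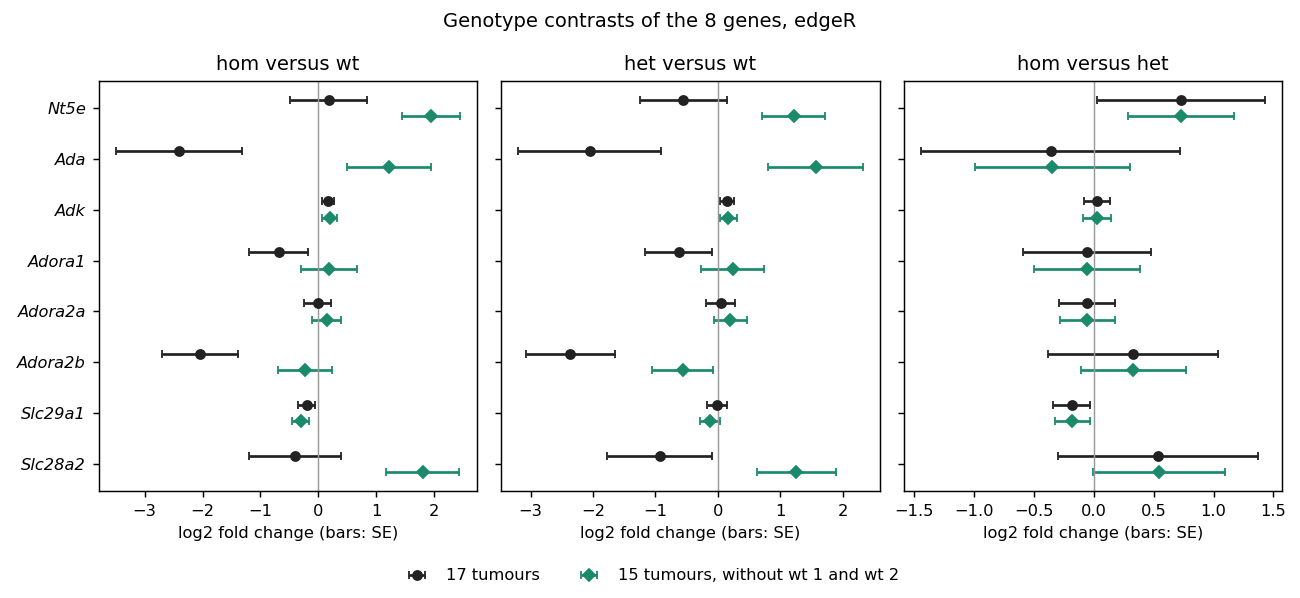
Log2 fold changes of the 8 genes in 3 genotype contrasts, with bars of 1 standard error, from edgeR fits over 17 large intestinal tumours (circles) and over 15, without wt 1 and wt 2 (diamonds). In both contrasts against wt, Ada is below 0 with the 17 tumours and above 0 with the 15, and in hom against het the estimates nearly coincide, with shorter bars over the 15 (Ada, SE 1.08 with 17 and 0.648 with 15).

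Across the 15 tumours, Slc28a2 followed Ada and Nt5e. Over log2 CPM, Slc28a2 and Ada had a Pearson r of 0.853 and a Spearman rho of 0.864 (n = 15, permutation p = 5.00e-05 for both, 0.0014 adjusted over 28 pairs of members). Leaving out the 2 tumours farthest from the median of Ada gave r = 0.796, and within the 6 hom tumours r was 0.905 (exact permutation p = 0.0292). Slc28a2 and Nt5e had r = 0.803 and rho = 0.768 (n = 15, permutation p = 2.90e-04 and 0.00137, adjusted 0.00406 and 0.0192), with r = 0.697 without the 2 farthest tumours and 0.879 within hom (exact permutation p = 0.0319). Nt5e and Ada had r = 0.644 and rho = 0.686 (permutation p = 0.00992 and 0.00595, adjusted 0.0571 and 0.0555), which did not pass after adjustment. Nt5e and Slc29a1 ran in opposite directions at r = -0.66 and rho = -0.66, also short of the threshold after adjustment (permutation p = 0.00748 and 0.00977, adjusted 0.0571 and 0.0684). No r was computed within the 5 het or the 4 wt tumours, so a relation within those genotypes was not tested. In het 1, 2, 3, 5 and 6, Nt5e was at 110, 58.6, 79.1, 50.01 and 47.2 CPM. Slc28a2 was at 29.8, 25.7, 128, 23.2 and 61.7 CPM in the same order. Nt5e was thus highest in het 1, while Slc28a2 and Ada were highest in het 3.

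**Figure D4:**
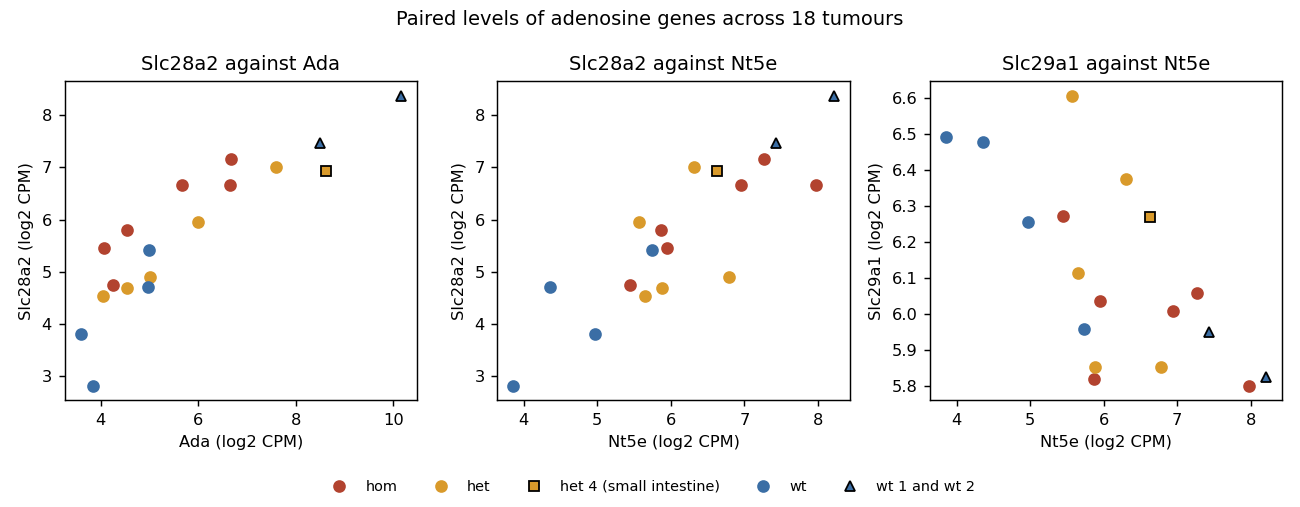
Levels of 3 pairs of members in log2 CPM, with 1 point for each of the 18 tumours, coloured by genotype; the square is het 4 and the triangles are wt 1 and wt 2. Slc28a2 is higher where Ada and Nt5e are higher (r = 0.853 and 0.803 over the 15 circles), and Slc29a1 is lower where Nt5e is higher (r = -0.66).

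The 3 varying genes also moved with the small intestinal markers. Against the log2 of the summed level of the 16 markers, Nt5e had r = 0.893 and rho = 0.886 over the 15 tumours (permutation p = 1.00e-05 for r, the smallest that 100000 permutations can give, and 2.00e-05 for rho; adjusted over 8 members 8.00e-05 and 1.60e-04). Slc28a2 had r = 0.842 and rho = 0.736 (permutation p = 8.00e-05 and 0.00229, adjusted 3.20e-04 and 0.00916). Ada had r = 0.629 and rho = 0.700 (permutation p = 0.0111 and 0.00488, adjusted 0.0222 and 0.0130). Slc29a1 had r = -0.64 and rho = -0.65 (permutation p = 0.00727 and 0.0107, adjusted 0.0194 and 0.0214). Without the 2 tumours farthest from the median of the marker sum, r was 0.829 for Nt5e, 0.781 for Slc28a2, 0.740 for Ada and -0.46 for Slc29a1. Within the 6 hom tumours it was 0.916, 0.914, 0.964 and -0.56 in the same order (exact permutation p = 0.0153, 0.0153, 0.00556 and 0.299). No r was computed within the het or wt tumours. Adora2b had r = -0.07 (permutation p = 0.819, adjusted 0.840), on 6 to 31 reads in the 15 tumours. Counts that low can weaken a correlation, so no lack of relation is read from it. All levels of a tumour share its library and its scaling. In whole tumours, fewer cells of a type and less RNA per cell cannot be told apart. The marker sum was 162.5, 991.9 and 1764 RPKM in wt 4, wt 5 and wt 6, the 3 tumours with the lowest Nt5e, and 18859 and 17667 RPKM in hom 3 and hom 6, the 2 hom tumours with the highest Nt5e; its part in the contrasts without wt 1 and wt 2 was not tested.

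Lists of related genes were drawn up by role, and none of their 76 tested genes was called in any contrast. With edgeR, 7 had an unadjusted p below 0.05 in hom against wt, 3 in het against wt and 0 in hom against het; with DESeq2 it was 8, 4 and 0, and with limma-voom 4, 1 and 0. Without wt 1 and wt 2 it was 15, 6 and 0 of 77 with edgeR, beside 3535, 1055 and 415 of all 14392 genes, where the 17 tumours gave 2277, 407 and 286 of 14271. For the 12 ectoenzymes that lead from ATP to adenosine, the median log2 fold change in hom against wt was 0.01 over 17 tumours and 0.49 without wt 1 and wt 2, beside -0.03 and 0.01 over all tested genes. In this list Enpp3, an ectonucleotide pyrophosphatase, stood at -4.16 on the log2 scale over 17 tumours (SE 1.51, adjusted p = 0.262 with edgeR) and at 2.21 without wt 1 and wt 2 (SE 0.929, adjusted p = 0.173 with edgeR). Acpp, an acid phosphatase that can act on AMP, had 1.29 (SE 0.381, edgeR adjusted p = 0.124) without wt 1 and wt 2 and 0.49 (SE 0.412, edgeR adjusted p = 0.538) with them. Enpp3 was at 37.2, 230.4 and 60.3 RPKM in wt 1, wt 2 and het 4 and at 0.0778 to 6.11 RPKM in the other 15.

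Of 16 genes of adenosine and AMP metabolism (nucleotidases, AMP deaminases and Dpp4 among them), 14 were tested, with a median log2 fold change of -0.14 in hom against wt over 17 tumours and -0.02 without wt 1 and wt 2. Adal, a relative of Ada, had -0.35 (SE 0.127, edgeR adjusted p = 0.262) and, without those 2 tumours, -0.48 (SE 0.107, edgeR adjusted p = 0.122), the same direction in both fits. Nt5c2, a cytosolic nucleotidase, had 0.32 (SE 0.131, edgeR adjusted p = 0.161) without them and 0.10 (SE 0.145, edgeR adjusted p = 0.730) with them. Dpp4, whose human protein binds adenosine deaminase at the cell surface, had 1.49 (SE 0.885, edgeR adjusted p = 0.624) in het against wt without wt 1 and wt 2 and 0.18 (SE 0.862, edgeR adjusted p = 0.999) with them. Of the 7 nucleoside transporters, Slc28a1, the pyrimidine-preferring concentrative carrier, had -1.71 (SE 1.09, edgeR adjusted p = 0.429) in hom against wt over 17 tumours and 1.10 (SE 0.990, edgeR adjusted p = 0.477) without wt 1 and wt 2.

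Purine salvage and breakdown genes had a median log2 fold change of -0.25 over 17 tumours in hom against wt (9 of 10 tested) and -0.07 without wt 1 and wt 2. The 20 G proteins, adenylyl cyclases and protein kinase A subunits that carry receptor signals had 0.04 in both fits. For genes of the P2 receptor families, which bind extracellular nucleotides for the most part, the median was 0.03 (11 of 15 tested) over 17 tumours and 0.58 (12 of 15) without wt 1 and wt 2. In hom against het, the medians of the lists over 17 tumours lay between -0.06 and 0.14, beside -0.01 over all tested genes.

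Some list members shared the pattern of Ada and Adora2b across wt 1, wt 2 and het 4, given as levels only. Of the ectoenzymes, 3 of 12 were higher in each of the 3 tumours than in each of the other 15 (Enpp1, Enpp3 and Alpi, the last an intestinal alkaline phosphatase), beside 3.27% of all tested genes; the contrast is the one used to choose members, and nothing is read from the count. Alpi was at 369.9, 597 and 334 RPKM in the 3 and at 3.03 to 198 RPKM in the 15. Slc28a1 was at 17.4, 27.1 and 15.7 RPKM against 0.0594 to 8.92 RPKM. Among later steps, Pnp, which splits the inosine that Ada forms, was at 91.0, 133 and 92.4 RPKM against 66.4 to 90.4 RPKM, and Gda, guanine deaminase, at 82.6, 99.99 and 90.2 RPKM against 4.38 to 79.0 RPKM. The margins of Pnp and Gda were narrow, and reads of Pnp could be shared with its close copy Pnp2. Ahcyl1, an S-adenosylhomocysteine hydrolase-like protein, also lay above by a narrow margin (81.7 to 82.5 against 62.5 to 81.0 RPKM), and Adcy6, an adenylyl cyclase, lay below (15.3 to 25.9 against 26.9 to 35.5 RPKM), as did 203 (1.42%) of all 14271 tested genes. No P2 receptor gene lay wholly above or below, of 11 tested.

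The genes nearest in pattern were found over all 18 tumours for the 4 members whose log2 CPM had an SD of at least 1, as the smallest root mean square difference of mean-centred log2 CPM among 13276 genes. The search includes wt 1, wt 2 and het 4, so it repeats the separation used to choose Ada and Adora2b, and the SD of Adora2b over the other 15 tumours was 0.652. Nearest to Ada (SD 1.90) were Npl at a difference of 0.757, Slc5a4a at 0.803, Gm9992 at 0.852, and Sec14l2 and Slc28a2b at 0.856 each. Adora2b (SD 1.41) was nearest to the glutathione transferases Gstm3 at 0.578 and Gstt1 at 0.679, followed by Slc25a45, Sec14l2 and Smpdl3b at 0.775 to 0.798. Nt5e (SD 1.17) was nearest to Tmem37 at 0.352, then Pla2g12b, Creb3l3, Cyp3a13 and Cidec at 0.426 to 0.467. Slc28a2 (SD 1.42) was nearest to its copy Slc28a2b at 0.383, then Vwa1, Npl and Slc27a4 at 0.573 to 0.596. The other 4 members had an SD over the 18 tumours of 0.182 for Adk, 0.258 for Slc29a1, 0.340 for Adora2a and 0.854 for Adora1.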

How the data were processed

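The deposited count table holds raw read counts per gene, and the deposited RPKM table was made from it by the authors: the RPKM equal counts per kilobase and library total up to 1 constant per library (largest relative spread 6.85e-07). Reads were handled with Trimmomatic, TopHat, featureCounts and Subread 1.4.5-p1 on mm10, per the submitters' processing notes; the sources used here do not give options or strand setting. The labels name both polyA RNA and a stranded total RNA kit. Gene lengths are the authors' deposited values.

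Genes were filtered with filterByExpr, scaled by TMM and tested with edgeR 4.0.16 (quasi-likelihood, robust, R 4.3.3) on 17 large intestinal tumours in 3 contrasts, with Benjamini-Hochberg adjustment over all tested genes and a threshold of 0.05. The same fit without wt 1 and wt 2 used 15. The het 4 tumour entered neither. The SE given with edgeR was derived as the absolute log2 fold change over the square root of the quasi-likelihood F statistic. CPM used TMM factors over 18 libraries, and log2 CPM a prior count of 2. DESeq2 1.42.0 and limma-voom (limma 3.58.1) were alternatives, as were no filter, a block for mouse number, each tumour left out, het 4 added, and Rn45s left out. Scripts were tested on simulated data. Correlations used 100000 permutations.

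Members and lists were chosen with earlier results of these data known. All 8 members are named; of each list, genes past the threshold and otherwise examples among the 2 per direction with the smallest p in a contrast are named, with list members that lay wholly above or below in wt 1, wt 2 and het 4, chosen after their values were seen, as was Adora3. Likeness names the 5 nearest genes, except 1 that is not reported here. Titles give each tumour of a genotype its own mouse, and no 2 libraries agreed within sampling noise (lowest chi-square per degree of freedom 17.7). Rn45s took 27.0% of counts in wt 3 and at most 0.725% elsewhere. No rows lacked a gene name. Positions are from GENCODE M21 on mm10, and sequences from RefSeq GRCm38.p6.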

Additional observations from a re-analysis of the deposited data

Results flagged for a closer look

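The values below were flagged and are given with no explanation. Ada in het 3, at 193.1 CPM, was far above the next het tumour at 63.96 CPM; the small intestinal marker sum was 15402 RPKM there against 2353 to 7661 RPKM in the other 4 large intestinal het tumours, and the mast cell marker sum 1674 RPKM against 37.4 to 370.7 RPKM. Ada in wt 2, at 1142 CPM, was far above the next wt tumour at 359.1 CPM; the same sums were 34117 RPKM and 8065 RPKM in wt 2. Both were judged by the gap in CPM, among 24 sets of 1 gene in 1 genotype. How many such samples chance alone gives was not tested. In log2 CPM, Ada was at 7.59 in het 3, 6.00 in het 6 and 4.05 in het 5, the lowest het tumour. It was at 10.16 in wt 2, 8.49 in wt 1 and 3.59 in wt 6, the lowest wt tumour. The level of Ada in wt 2 had also entered the choice of members. Adora2b in het 4 was flagged only because that small intestinal tumour was outside the comparisons. It was at 9.827 CPM, close to the highest wt tumour at 8.914 CPM, and its level had entered the choice of members.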

How the results depend on the processing

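No member was called under any of the 24 alternatives, and of 576 recomputed member values 518 kept their direction and 58 turned it. Ada, Nt5e and Slc28a2 had at least 95 reads in each tumour, while Adora2b had as few as 6, which limits its precision. The cause of the turns below was not tested. Genes called in hom against wt numbered 1; DESeq2 called 22 (9 higher, 13 lower), and leaving out 1 tumour gave 1 to 2, with 2 without hom 2 and without hom 5. A replicate block by mouse number gave 2 genes in hom against wt, 0 in het against wt and 0 in place of 1 in hom against het. Correlations of same-numbered tumours ran from -0.45 to 0.33, and 1 of 16 tumours correlated best with its own number. Expression thus showed no pairing by number. These values cannot exclude shared handling of same-numbered tumours, which was not tested. The block gave log2 fold changes of 0.013 for Adora2a and 0.31 for Slc28a2 in hom against wt, and 0.18 for Ada and 0.19 for Adora1 in hom against het. Without wt 1 and wt 2, hom against wt was 1.22 for Ada, 0.18 for Adora1, 0.14 for Adora2a and 1.80 for Slc28a2, and het against wt 1.22 for Nt5e, 1.57 for Ada, 0.24 for Adora1 and 1.26 for Slc28a2. Adora2a in hom against wt, at -0.01, was 0.012 with DESeq2, 0.045 with limma-voom, 0.021 with no filter, 0.016 with all 18 tumours and 0.014 without Rn45s. With limma-voom, Slc28a2 was 0.63 in hom against wt and Nt5e 0.26 in het against wt. Slc29a1 in het against wt was 0.0071 with no filter and 0.011 with all 18 tumours, where Adora2b in hom against het was -1.29. Leaving out 1 tumour at a time, hom against wt ranged from -0.19 to 0.95 for Nt5e, from -0.10 to 0.10 for Adora2a and from -0.59 to 0.53 for Slc28a2. In het against wt the range was -0.73 to 0.22 for Nt5e, -0.059 to 0.15 for Adora2a and -0.12 to 0.078 for Slc29a1. In hom against het it was -0.65 to 0.62 for Ada, -0.042 to 0.074 for Adk, -0.41 to 0.10 for Adora1 and -0.11 to 0.018 for Adora2a.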
